A study of Homo sapiens with 6 samples.

Results

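Collagen chain genes were examined in the ovarian carcinoma line SKOV3, an established line of human origin, with and without an introduced TIPE2 cDNA. The members are the protein coding genes whose symbol is COL, a number, A and a number, found by matching the Ensembl identifiers of the deposited tables to GENCODE release 29 names on GRCh38. This rule gave 44 genes of 58735 in the tables, and it used no expression value. There were 3 TIPE2 libraries, from cells given a lentivirus that carries human TIPE2 cDNA (the gene TNFAIP8L2), and 3 Vector libraries, from cells given the empty vector. All cells were grown in McCoy's medium with serum and antibiotics, and the protocol describes lentivirus and puromycin selection for stable TIPE2 cells. The promoter that drives the cDNA is not given in the sources used here. The labels call the libraries biological replicates of 1 line per condition but are silent on separate transductions, and p-values therefore cover only how far these libraries spread. Values are FPKM, fragments per kilobase of gene, scaled by a denominator for each library. This denominator was 96.3% to 103% of the fragments assigned to genes, so it was not the assigned count itself. The length used is that of all annotated exons of a gene merged, not that of a transcript. Levels of different genes are compared on this scale and depend on that length. A difference is TIPE2 minus Vector on the log2(FPKM + 1) scale, and its p is adjusted by Benjamini-Hochberg over all 12538 genes tested, with a threshold of 0.05.

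Collagens are secreted or membrane-bound proteins whose chains wind into a triple helix of repeated glycine-X-Y triplets. Fibrillar chains build the ropes of connective tissue, type IV chains build the sheet of the basement membrane, and the fibril-associated, beaded, anchoring, short-chain, transmembrane and multiplexin classes attach, space or tether these structures. Chains are hydroxylated and folded in the endoplasmic reticulum, trimmed outside the cell and cross-linked by lysyl oxidases. In ovarian carcinoma the stroma is known as the main source of fibrillar collagen, whereas epithelial cells are known for basement membrane chains.

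Depth was between 15983317 and 18583473 fragments assigned to genes per library, as recovered from the FPKM values. TNFAIP8L2 had 47.2 to 58.4 FPKM in the TIPE2 libraries and at most 0.0476 FPKM in the Vector libraries, as the labels have it. Of 9 carcinoma markers, 7 averaged 1 FPKM or more, among them keratins, ERBB2 and PAX8, whereas MUC16 and WT1 stayed below 1 FPKM. The summed level of the 9 was 1187 to 1437 FPKM in TIPE2 and 1366 to 1500.0 FPKM in Vector libraries. In TIPE2 against Vector libraries KRT7 had 139 to 166 against 241 to 384 FPKM (limma, adjusted p = 0.343). KRT18 had 66.7 to 74.5 against 92.8 to 135 FPKM (limma, adjusted p = 0.743). Both were lower in each TIPE2 library than in each Vector library, beside 5.31% of genes tested. Of the 7 markers, 5 had a lower mean in TIPE2 cells and 2, EPCAM and ERBB2, a higher one. Of 9 fibroblast markers TAGLN, which carcinoma cells can also express, alone averaged 1 FPKM or more, and the other 8 were at most 1.11 FPKM in any library. No endothelial marker of 7 and no immune marker of 6 reached that mean, and CDH5, EMCN and CD3E were at 0 in all 6 libraries. Fewer cells of a type and less RNA per cell cannot be told apart in such bulk libraries.

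Of the 44 collagen genes, 18 averaged 1 FPKM or more in the TIPE2 cells and 15 in the Vector cells, and the 15 were all among the 18. COL1A1, COL8A1 and COL27A1 reached the mean in TIPE2 cells only. In all 6 libraries 13 genes were at 1 FPKM or more, and 7 averaged 10 FPKM or more over all 6. Fragments were seen in at least 1 library for 42 genes, and COL22A1 and COL6A5 had none. By the limit of 3 fragments in Vector 1, the library with the smallest denominator, this allows up to 0.0243 and 0.0198 FPKM. At the 1 FPKM line, COL27A1 lay just outside over all 6 libraries, with 1.14 ± 0.501 FPKM with TIPE2 and 0.792 ± 0.416 FPKM with the empty vector, and COL11A2 just inside, with 1.30 ± 0.234 FPKM with TIPE2 and 1.06 ± 0.137 FPKM with the empty vector (SD, n = 3).

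By class, type IV had 4 of 6 genes at a mean of 1 FPKM or more in both groups, type VI had 2 of 5, the transmembrane collagens had 2 of 4, the multiplexins had 1 of 2, and the anchoring fibril collagen COL7A1, alone in its class, was expressed. Fibrillar genes reached this level in 6 of 11 cases in TIPE2 and 4 of 11 in Vector cells. The fibril-associated class had 1 of 10, which was COL12A1. Short-chain genes had 1 of 3 in TIPE2 cells, COL8A1, and none of 3 in Vector cells, where COL8A1 averaged 0.902 FPKM. COL26A1 and COL28A1, which stand outside these classes, were below 1 FPKM throughout. Of the 26 genes below 1 FPKM in both groups, 15 stayed under 0.1 FPKM in every library and 14 had 20 or fewer fragments over all 6 libraries.

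**Figure D1:**
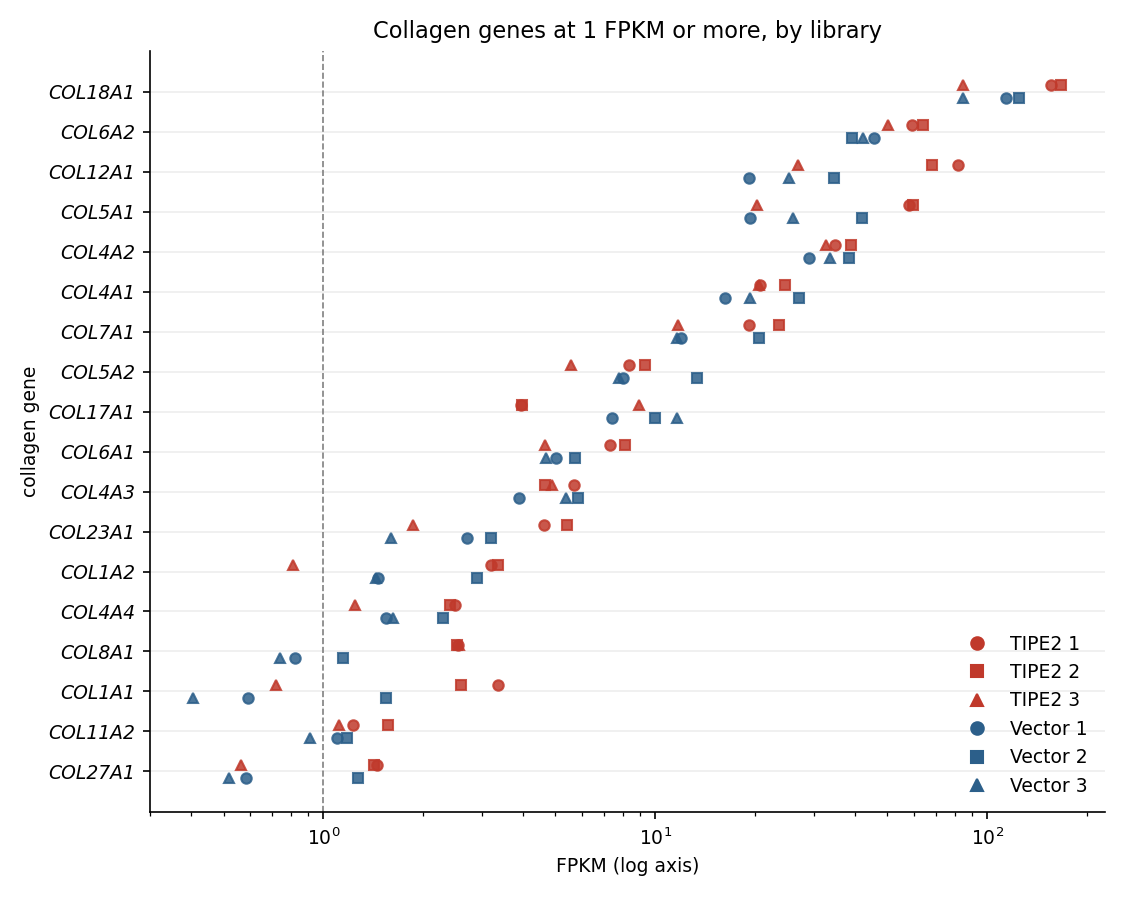
FPKM on a log axis for the 18 collagen genes that averaged 1 FPKM or more in either group, 1 point per library, TIPE2 in red and Vector in blue, with a dashed line at 1 FPKM. COL18A1 had the highest level in every library, and the triangle of TIPE2 3 often lies to the left of the other red points.

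Summed over the 44 genes, collagen transcripts came to 478, 495 and 282 FPKM in TIPE2 1, 2 and 3, against 291, 377 and 281 FPKM in Vector 1, 2 and 3. The groups overlapped, since TIPE2 3 lay below Vector 1 and Vector 2. Collagen genes took 0.505, 0.508 and 0.288% of assigned fragments in TIPE2 1, 2 and 3, against 0.276, 0.404 and 0.297% in Vector 1, 2 and 3. COL18A1 made up 32.5% of the summed FPKM in TIPE2 and 34.0% in Vector cells, and the 5 highest genes together 79.9% and 75.6%.

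COL18A1 (ENSG00000182871; chromosome 21, 45405137 to 45513720, plus strand), a multiplexin of basement membranes whose C-terminal fragment is endostatin, was the most abundant. It had 156, 167 and 84.5 FPKM in TIPE2 1, 2 and 3 and 114, 125 and 84.3 FPKM in Vector 1, 2 and 3. TIPE2 1 and 2 were the highest and TIPE2 3 was level with Vector 3, so the groups overlapped. The difference was 0.29 ± 0.28 (SE; limma, adjusted p = 0.848), and it was 0.16 without TIPE2 1, 0.11 without TIPE2 2, 0.60 without TIPE2 3 and 0.13 without Vector 3. SLC19A1, on the opposite strand, shares 1401 bases of exon with COL18A1, 16.4% of its exon length, and had at most 6.26 FPKM; how the counting treated strand is not given in the sources used here, so reads of the shared bases cannot be told apart. The other multiplexin, COL15A1, had 14 fragments in all.

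The 4 type IV chains above 1 FPKM had overlapping levels in both groups. COL4A2 (ENSG00000134871; chromosome 13, 110305812 to 110513209, plus strand) and COL4A1 (ENSG00000187498; chromosome 13, 110148963 to 110307233, minus strand) encode the chains of the common basement membrane network and lie head to head. COL4A2 had 34.9, 38.8 and 32.8 FPKM in TIPE2 1, 2 and 3 and 29.1, 38.5 and 33.7 FPKM in Vector 1, 2 and 3. COL4A1 had 20.7, 24.6 and 20.6 FPKM in TIPE2 1, 2 and 3 and 16.2, 27.1 and 19.4 FPKM in Vector 1, 2 and 3. Both were lowest in Vector 1, COL4A1 was highest in Vector 2, and the groups overlapped for both. The log2 differences were 0.08 (95% interval -0.25 to 0.40) and 0.10 (95% interval -0.33 to 0.52), with adjusted p of 0.909 and 0.911 (limma). The ratio of COL4A2 to COL4A1 levels was 1.68, 1.58 and 1.59 in TIPE2 1, 2 and 3, against 1.80, 1.42 and 1.74 in Vector 1, 2 and 3. COL4A2 was thus the higher of the pair in each library on the FPKM scale, with merged exon lengths of 19293 and 14738 bases.

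The minor type IV chains of COL4A3 and COL4A4, known from the glomerular basement membrane, where they assemble with the COL4A5 chain, also formed a head-to-head pair here above 1 FPKM. COL4A3 had 5.70, 4.65 and 4.88 FPKM in TIPE2 1, 2 and 3 and 3.88, 5.85 and 5.39 FPKM in Vector 1, 2 and 3. COL4A4 had 2.49, 2.41 and 1.24 FPKM in TIPE2 1, 2 and 3 and 1.55, 2.29 and 1.62 FPKM in Vector 1, 2 and 3. TIPE2 3 was the lowest library for COL4A4, and neither gene separated the groups. Their log2 differences were 0.02 (95% interval -0.33 to 0.37) and 0.09 (95% interval -0.36 to 0.55), with adjusted p of 0.977 and 0.916 (limma). An antisense gene shares 120 bases of exon with COL4A3, and it had at most 0.587 FPKM. COL4A5 itself stayed below 1 FPKM. It had 0.535, 0.482 and 0.404 FPKM in TIPE2 1, 2 and 3 and 0.192, 0.227 and 0.232 FPKM in Vector 1, 2 and 3, from 122, 100 and 80 fragments in TIPE2 1, 2 and 3, against 36, 48 and 45 in Vector 1, 2 and 3. Each TIPE2 library lay above each Vector library for COL4A5. COL4A6, its neighbour on chromosome X, had 3 fragments in all.

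The windows around the starts of COL4A2 and COL4A3 are shown because each shares bases with the window of its head-to-head partner. RefSeq windows on GRCh38.p14 run from 250 bases before to 50 bases after a gene's RefSeq start, which can differ from the GENCODE start given above, as for COL4A2, and are printed 5′ to 3′ on the strand of the named gene. Capitals mark the bases that also lie in the window of the partner, 226 bases for COL4A2 with COL4A1 and 82 bases for COL4A3 with COL4A4.
COL4A2 (chr13:110307034-110307333, plus strand): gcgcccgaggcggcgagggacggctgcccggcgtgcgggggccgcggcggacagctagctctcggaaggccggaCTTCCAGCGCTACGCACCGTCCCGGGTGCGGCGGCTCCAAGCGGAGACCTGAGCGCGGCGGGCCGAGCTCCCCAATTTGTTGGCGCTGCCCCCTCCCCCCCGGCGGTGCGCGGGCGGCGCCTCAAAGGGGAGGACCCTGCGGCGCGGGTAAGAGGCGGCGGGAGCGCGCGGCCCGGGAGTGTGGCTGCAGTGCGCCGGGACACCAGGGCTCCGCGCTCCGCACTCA
COL4A3 (chr2:227164374-227164673, plus strand): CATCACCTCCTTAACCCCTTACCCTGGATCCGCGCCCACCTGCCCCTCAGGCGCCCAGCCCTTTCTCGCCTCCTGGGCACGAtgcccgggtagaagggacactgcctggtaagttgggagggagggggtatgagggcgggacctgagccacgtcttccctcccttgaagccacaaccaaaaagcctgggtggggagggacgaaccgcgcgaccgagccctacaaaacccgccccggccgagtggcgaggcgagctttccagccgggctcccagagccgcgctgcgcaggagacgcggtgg

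Type VI collagen, which forms beaded microfilaments beside basement membranes, was represented by COL6A2 and COL6A1, both on chromosome 21. COL6A2 (ENSG00000142173; chromosome 21, 46098097 to 46132849, plus strand) had 59.4, 64.3 and 50.3 FPKM in TIPE2 1, 2 and 3 and 45.6, 39.1 and 42.4 FPKM in Vector 1, 2 and 3. Each TIPE2 library lay above each Vector library. The difference was 0.44 ± 0.14 (SE; limma, adjusted p = 0.736). COL6A1 (ENSG00000142156; chromosome 21, 45981737 to 46005050, plus strand) had 7.30, 8.08 and 4.65 FPKM in TIPE2 1, 2 and 3 and 5.02, 5.71 and 4.70 FPKM in Vector 1, 2 and 3. Here TIPE2 3 lay below all Vector libraries, and the difference was 0.30 ± 0.18 (SE; limma, adjusted p = 0.834), with 0.16 without TIPE2 2 and 0.50 without TIPE2 3. The ratio of COL6A2 to COL6A1 was 8.14, 7.95 and 10.8 in TIPE2 1, 2 and 3, against 9.07, 6.84 and 9.02 in Vector 1, 2 and 3, which shows an excess of COL6A2 in every library. COL6A3, whose chain joins those of COL6A1 and COL6A2 in the usual molecule, was low. It had 0.133, 0.134 and 0.281 FPKM in TIPE2 1, 2 and 3 and 0.0161, 0.106 and 0.0842 FPKM in Vector 1, 2 and 3, from 50, 46 and 92 fragments in TIPE2 1, 2 and 3, against 5, 37 and 27 in Vector 1, 2 and 3. TIPE2 3 was its highest library, and each TIPE2 library lay above each Vector library. COL6A5 had no fragment and COL6A6 had 1.

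Among fibrillar collagens COL5A1 was the main transcript. COL5A1 and COL5A2 encode the chains of type V collagen, which is known to start and limit the growth of type I fibrils. COL5A1 (ENSG00000130635; chromosome 9, 134641774 to 134844843, plus strand) had 58.3, 59.6 and 20.3 FPKM in TIPE2 1, 2 and 3 and 19.2, 42.1 and 26.03 FPKM in Vector 1, 2 and 3. TIPE2 1 and 2 stood above the rest, Vector 2 came next, and TIPE2 3 was near the low Vector libraries. COL5A2 (ENSG00000204262; chromosome 2, 189031896 to 189225312, minus strand) had 8.33, 9.28 and 5.57 FPKM in TIPE2 1, 2 and 3 and 7.98, 13.4 and 7.76 FPKM in Vector 1, 2 and 3. It was highest in Vector 2 and lowest in TIPE2 3. The differences were 0.57 ± 0.45 (SE; limma, adjusted p = 0.844) for COL5A1 and -0.28 ± 0.23 (SE; limma, adjusted p = 0.844) for COL5A2. The COL5A1 difference was 0.32 without TIPE2 1, 0.31 without TIPE2 2, 1.06 without TIPE2 3, 0.31 without Vector 1 and 0.86 without Vector 2, and the COL5A2 difference was -0.09 without TIPE2 3 and -0.05 without Vector 2. The ratio of COL5A1 to COL5A2 was 7.002, 6.42 and 3.64 in TIPE2 1, 2 and 3, against 2.41, 3.15 and 3.36 in Vector 1, 2 and 3. This ratio was higher in each TIPE2 library than in each Vector library, by a small margin for TIPE2 3, and it was not tested. The other chain ratios, of COL4A2 to COL4A1, COL6A2 to COL6A1 and COL4A3 to COL4A4, overlapped between the groups.

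Type I collagen, the chief fibril protein of connective tissue, was expressed weakly. COL1A1 (ENSG00000108821; chromosome 17, 50183289 to 50201632, minus strand) had 3.36, 2.60 and 0.721 FPKM in TIPE2 1, 2 and 3 and 0.593, 1.54 and 0.405 FPKM in Vector 1, 2 and 3. COL1A2 (ENSG00000164692; chromosome 7, 94394561 to 94431232, plus strand) had 3.20, 3.36 and 0.812 FPKM in TIPE2 1, 2 and 3 and 1.46, 2.91 and 1.44 FPKM in Vector 1, 2 and 3. For both genes TIPE2 1, TIPE2 2 and Vector 2 were the 3 highest libraries. COL1A1 differed by 0.75 ± 0.37 (SE; limma, adjusted p = 0.834) and COL1A2 by 0.17 ± 0.36 (SE; limma, adjusted p = 0.917). The COL1A1 difference was 0.48 without TIPE2 1 and 1.15 without TIPE2 3, 1.25 with a pseudocount of 0.1 and 1.35 with limma-voom, and the COL1A2 difference changed sign, to -0.02 without TIPE2 1 and -0.05 without TIPE2 2, and was 0.58 without TIPE2 3, 0.06 without Vector 1, 0.39 without Vector 2 and 0.05 without Vector 3. COL3A1, the partner of type I in reticular fibres, had 0.803, 0.622 and 0.132 FPKM in TIPE2 1, 2 and 3 and 0.0372, 0.0330 and 0.0899 FPKM in Vector 1, 2 and 3. These came from 105, 74 and 15 fragments in TIPE2 1, 2 and 3, against 4, 4 and 10 in Vector 1, 2 and 3. TIPE2 1 and 2 held most of them, although TIPE2 3 also lay above the Vector libraries. COL27A1, a fibrillar chain known from cartilage, had 1.45, 1.42 and 0.566 FPKM in TIPE2 1, 2 and 3 and 0.584, 1.27 and 0.521 FPKM in Vector 1, 2 and 3. It was high in TIPE2 1, TIPE2 2 and Vector 2 again. COL11A2, another cartilage chain, was nearly level, with 1.23, 1.56 and 1.11 FPKM in TIPE2 1, 2 and 3 and 1.099, 1.17 and 0.908 FPKM in Vector 1, 2 and 3. COL2A1, COL5A3, COL11A1 and COL24A1 were below 1 FPKM in every library.

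COL12A1 (ENSG00000111799; chromosome 6, 75084326 to 75206051, minus strand), a fibril-associated collagen that bridges type I fibrils and other matrix proteins, had the widest difference of the 17 genes tested on the log2(FPKM + 1) scale, while by the ratio of mean FPKM, by limma-voom and with a pseudocount of 0.1 COL8A1 and COL1A1 came before it. It had 81.6, 68.3 and 27.0 FPKM in TIPE2 1, 2 and 3 and 19.1, 34.5 and 25.3 FPKM in Vector 1, 2 and 3. TIPE2 1 and 2 stood apart from the other 4 libraries, and TIPE2 3 lay below Vector 2. The means were 59.0 ± 28.5 FPKM with TIPE2 and 26.3 ± 7.74 FPKM with the empty vector (SD, n = 3), a difference of 1.03 ± 0.41 (SE; limma, adjusted p = 0.807). Leaving out 1 library at a time gave log2 differences between 0.73 and 1.51. The summed level of the 10 fibril-associated genes, almost all COL12A1, was 83.0, 69.6 and 27.6 FPKM in TIPE2 1, 2 and 3 and 20.5, 35.5 and 25.8 FPKM in Vector 1, 2 and 3. COL9A2 and COL16A1 were the next in this class, with means of 0.631 and 0.347 FPKM in TIPE2 and 0.398 and 0.424 FPKM in Vector cells.

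COL7A1 (ENSG00000114270; chromosome 3, 48564073 to 48595267, minus strand), the chain of the fibrils that anchor epithelial basement membranes, had 19.2, 23.6 and 11.7 FPKM in TIPE2 1, 2 and 3 and 11.96, 20.5 and 11.7 FPKM in Vector 1, 2 and 3. TIPE2 1, TIPE2 2 and Vector 2 were again the highest, and the difference was 0.28 ± 0.28 (SE; limma, adjusted p = 0.852), with 0.07 without TIPE2 2, 0.55 without TIPE2 3, 0.16 without Vector 1, 0.53 without Vector 2 and 0.15 without Vector 3. COL17A1 (ENSG00000065618; chromosome 10, 104031286 to 104085957, minus strand), the transmembrane collagen of hemidesmosomes, had its highest TIPE2 level in TIPE2 3. It had 3.93, 3.96 and 8.93 FPKM in TIPE2 1, 2 and 3 and 7.39, 9.95 and 11.7 FPKM in Vector 1, 2 and 3. TIPE2 1 and 2 were the lowest libraries, and TIPE2 3 lay within the Vector range. The means were 5.61 ± 2.88 FPKM with TIPE2 and 9.67 ± 2.15 FPKM with the empty vector (SD, n = 3), a difference of -0.75 ± 0.28 (SE; limma, adjusted p = 0.802). COL23A1, a second transmembrane collagen, had 4.63, 5.42 and 1.86 FPKM in TIPE2 1, 2 and 3 and 2.71, 3.20 and 1.59 FPKM in Vector 1, 2 and 3 and a difference of 0.45 ± 0.32 (SE; limma, adjusted p = 0.842), which was 0.23 without TIPE2 2, 0.81 without TIPE2 3 and 0.25 without Vector 3.

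COL8A1 (ENSG00000144810; chromosome 3, 99638475 to 99799226, plus strand) encodes a short-chain collagen of hexagonal networks, known from the vessel wall and the corneal endothelium's basement membrane. It had 2.55, 2.52 and 2.56 FPKM in TIPE2 1, 2 and 3 and 0.821, 1.15 and 0.742 FPKM in Vector 1, 2 and 3. The 3 TIPE2 libraries were nearly equal and lay above all 3 Vector libraries. These values rest on 461, 415 and 402 fragments in TIPE2 1, 2 and 3, against 122, 192 and 114 in Vector 1, 2 and 3. The means were 2.55 ± 0.0198 FPKM with TIPE2 and 0.902 ± 0.214 FPKM with the empty vector (SD, n = 3), a ratio of 2.82, and the difference on the log2(FPKM + 1) scale was 0.90 ± 0.12 (SE; limma, adjusted p = 0.133). It therefore did not pass over all genes. It was among the genes tested only through its TIPE2 level, and with no filter the adjusted p was 0.445 (limma). With limma-voom on recovered fragments, an alternative that does not add 1 to low values, the log2 difference was 1.51 and passed (adjusted p = 0.0366). That fit used the same filter, which COL8A1 passed through its TIPE2 level, and limma-voom with no filter was not run. Over the other 11 alternative fits in which COL8A1 passed the filter the adjusted p lay between 0.0934 and 0.578 (limma). COL8A2, its partner gene, had 0.613, 0.539 and 0.372 FPKM in TIPE2 1, 2 and 3 and 0.664, 0.697 and 0.262 FPKM in Vector 1, 2 and 3, and COL10A1 had 5 fragments in all.

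**Figure D2:**
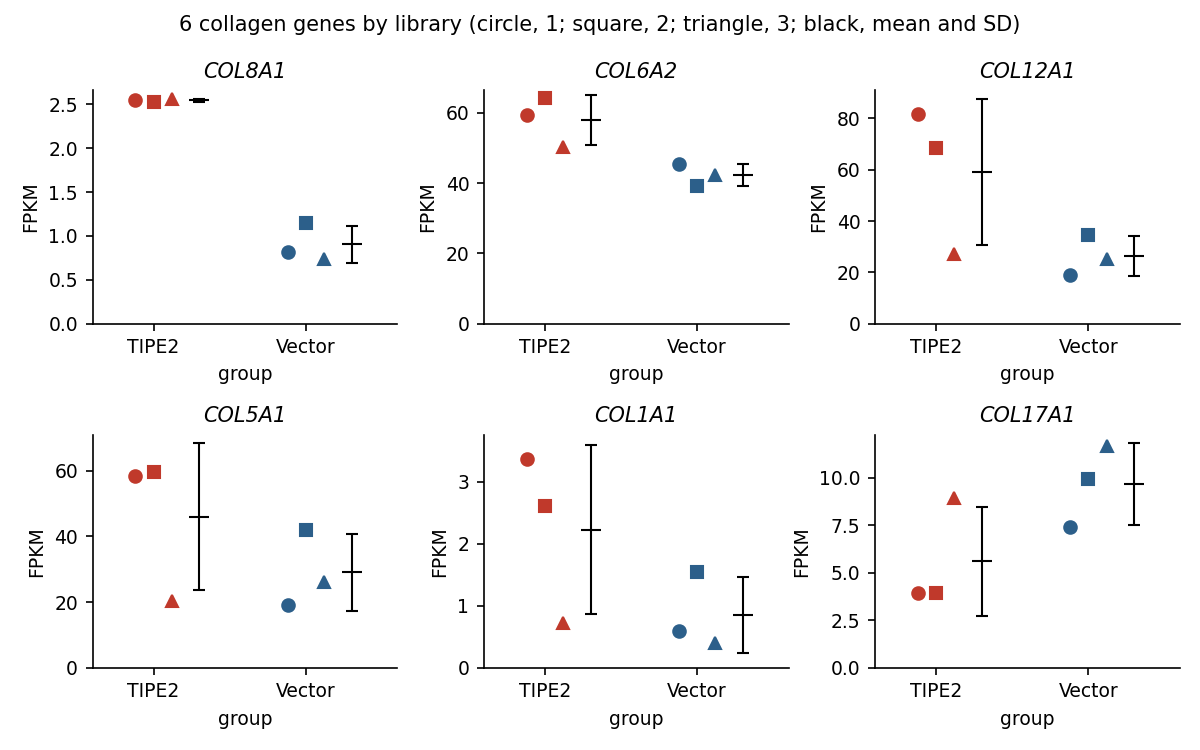
FPKM per library of 6 collagen genes, with the group mean and SD in black. COL8A1 was even within TIPE2 at 2.52 to 2.56 FPKM and above all Vector libraries, whereas COL12A1, COL5A1 and COL1A1 were highest in TIPE2 1 and 2, and COL17A1 was lowest in the same 2 libraries.

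The windows of COL12A1, COL5A1, COL6A2 and COL17A1 are shown because the first 3 genes were among the most abundant and had higher means in TIPE2 cells, whereas COL17A1 had a lower mean. Capitals mark matches on either strand to the GC box, with the letters GGGCGG, to the CCAAT box, as spelled, or to the TATA box, with the letters TATAAA. A GC box and a CCAAT box can share bases, and each was counted for itself. Of 44 windows of 32 collagen genes, 54.5% held a GC box, 31.8% a CCAAT box and 18.2% a TATA box, against 45.0%, 34.6% and 11.5% of 35116 RefSeq windows. In the windows shown, COL12A1 and COL5A1 each held 2 GC boxes, COL6A2 held 4 and a TATA box, and COL17A1 held a CCAAT box, a TATA box and no GC box. Genes with a higher mean that are not shown varied. COL18A1 held 9 GC boxes, COL7A1 held 3 and a TATA box, and COL4A4 held no GC box. COL5A1 and COL18A1 have 2 RefSeq windows each, and the one with the lower start coordinate was used. Whether the motifs bear on the differences, none of which passed, was not tested. The members without a window here are COL1A1, COL1A2, COL2A1, COL3A1, COL5A2, COL6A1, COL6A5, COL8A1, COL9A3, COL14A1, COL20A1 and COL22A1.
COL12A1 (chr6:75206004-75206303, minus strand): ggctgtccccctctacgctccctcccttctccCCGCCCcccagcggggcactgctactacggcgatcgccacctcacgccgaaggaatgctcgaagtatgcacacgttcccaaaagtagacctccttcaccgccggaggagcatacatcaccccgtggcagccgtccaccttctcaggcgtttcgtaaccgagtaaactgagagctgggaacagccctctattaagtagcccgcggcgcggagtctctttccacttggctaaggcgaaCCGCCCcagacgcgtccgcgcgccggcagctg
COL5A1 (chr9:134641553-134641852, plus strand): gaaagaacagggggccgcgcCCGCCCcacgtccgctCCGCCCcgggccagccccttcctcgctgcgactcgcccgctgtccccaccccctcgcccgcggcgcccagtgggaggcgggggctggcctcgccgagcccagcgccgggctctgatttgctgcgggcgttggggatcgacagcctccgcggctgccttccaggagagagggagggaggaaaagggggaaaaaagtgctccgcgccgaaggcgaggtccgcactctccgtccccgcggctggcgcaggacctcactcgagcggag
COL6A2 (chr21:46097862-46098161, plus strand): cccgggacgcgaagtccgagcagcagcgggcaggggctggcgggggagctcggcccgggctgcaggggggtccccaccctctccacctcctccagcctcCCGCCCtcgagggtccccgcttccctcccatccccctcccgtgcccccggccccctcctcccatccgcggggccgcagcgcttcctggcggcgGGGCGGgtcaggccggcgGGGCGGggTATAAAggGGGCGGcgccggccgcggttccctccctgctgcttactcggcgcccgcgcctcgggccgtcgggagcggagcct
COL17A1 (chr10:104085831-104086130, minus strand): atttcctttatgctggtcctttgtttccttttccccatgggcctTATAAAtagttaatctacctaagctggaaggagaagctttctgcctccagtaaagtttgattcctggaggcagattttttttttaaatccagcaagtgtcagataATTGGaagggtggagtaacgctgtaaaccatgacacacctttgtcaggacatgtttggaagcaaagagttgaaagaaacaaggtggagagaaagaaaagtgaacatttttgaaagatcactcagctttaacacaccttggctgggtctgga

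Across all 12538 genes that averaged 1 FPKM or more, limma called 3 genes at an adjusted p under 0.05, 0.0239% of those tested, and none of them was a collagen gene. Of the 17 collagen genes tested, 0 were called by limma and 1, COL8A1, by limma-voom, which called 0.0319% of all genes. COL8A1 passed the filter of both fits through its TIPE2 level. The adjusted p of the 17 lay between 0.133 and 0.977 (limma). At an unadjusted p under 0.05 there were 3 higher, COL8A1, COL6A2 and COL12A1, beside 3.01% of all genes tested, and 1 lower, COL17A1, beside 2.97%. The number at an unadjusted p under 0.05 was 10 without TIPE2 3, 2 without TIPE2 1, 1 without TIPE2 2 and 2 without Vector 3. Shares of all genes are not given for these fits, so the counts cannot be set against all genes. Without TIPE2 3 the genes called at an adjusted p under 0.05 over all genes (limma) also rose, from 3 to 11.

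The mean on the log2 scale was higher in TIPE2 cells for 15 of the 17, beside 48.9% of all genes tested, and lower for COL17A1 and COL5A2, while under quantile normalization COL4A3 was also lower, at -0.0054. Without 1 library at a time the number with a higher mean lay between 12 and 16. The median difference was 0.28 for the 17 and -0.01 for all genes, and the range ran from -0.75 to 1.03. The median of the collagen genes was 0.18 without TIPE2 1, 0.08 without TIPE2 2, 0.52 without TIPE2 3, 0.17 without Vector 1, 0.14 without Vector 3 and 0.04 where low genes were kept. The median standard error was 0.24 for the collagen genes and 0.14 for all genes. COL1A1 and COL8A1 passed the filter through their TIPE2 level and had below 1 FPKM on average in Vector cells, so the 17 are not a sample of the 44. The groups did not overlap for COL8A1 and COL6A2, both higher in TIPE2, beside 6.18% of genes tested, and for no collagen gene in the lower direction, beside 5.31%. The 27 untested members include COL22A1 and COL6A5, which had no fragment and are outside the shares of genes above 0. Of the 27, COL4A5, COL3A1, COL6A3 and COL21A1 did not overlap, all higher, beside 3.68% of genes above 0 but not tested. None was lower, beside 4.21%. Those shares were not matched for fragment number, and the 4 genes had 431, 212, 257 and 16 fragments in all. With no filter on low values, COL4A5 had an unadjusted p of 0.0198 and COL3A1 of 0.0293, each with an adjusted p of 0.785 (limma).

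**Figure D3:**
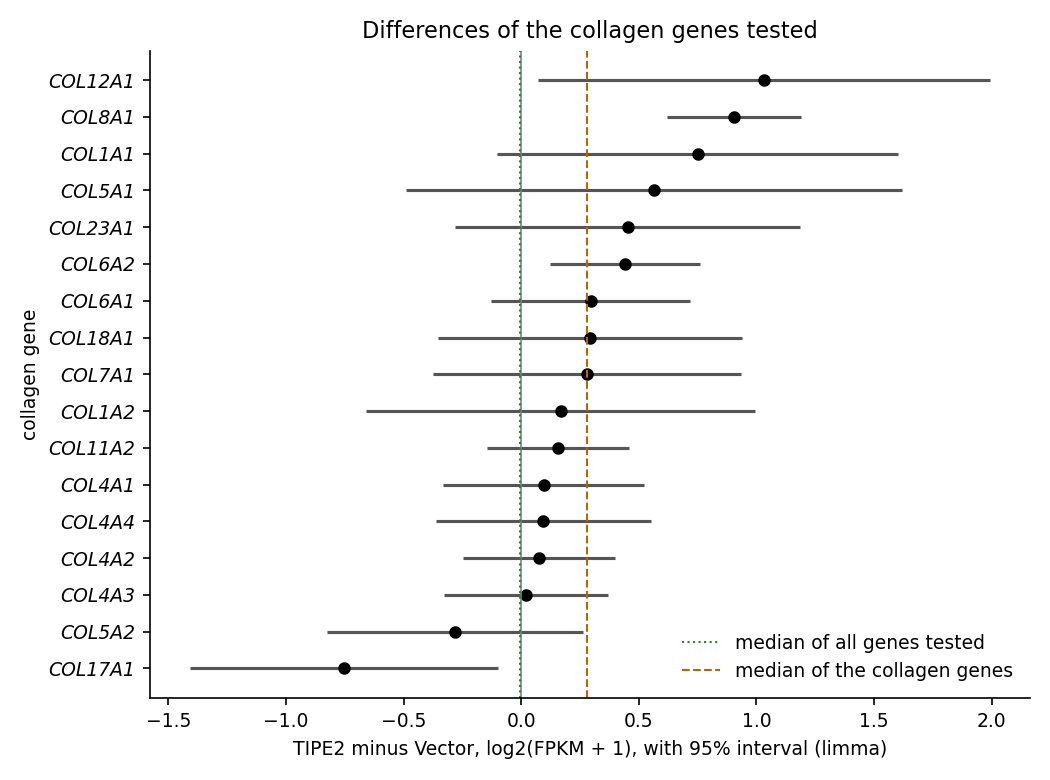
Difference of TIPE2 minus Vector on the log2(FPKM + 1) scale for the 17 collagen genes tested, with the 95% interval from limma. Points lie between -0.75 and 1.03, the median of the 17 is 0.28, and the intervals of COL8A1, COL6A2, COL12A1 and COL17A1 alone leave out 0, before adjustment over all genes.

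The spread within groups was wide for collagen genes. Whole libraries also differed in closeness. Over 17647 genes the fragment counts of TIPE2 1 and 2, scaled for depth, had a chi-square per degree of freedom of 6.09. It was 35.7 for TIPE2 1 with 3 and 25.3 for TIPE2 2 with 3. Vector pairs had 34.2 for 1 with 2, 38.8 for 1 with 3 and 12.6 for 2 with 3. The closeness of TIPE2 1 and 2 was thus not limited to collagen genes. For 15 of the 17 the difference between group means was smaller than the larger of the 2 within-group ranges, as it was for 94.3% of all genes tested. The median range within TIPE2 was 0.69 on the log2 scale for the 17 and 0.26 for all genes, and within Vector it was 0.59 and 0.34. TIPE2 3 was the lowest TIPE2 library for 14 of the 17, beside 38.8% of all genes, and Vector 2 the highest Vector library for 15 of the 17, beside 26.4%. The median deviation of the 17 genes from their mean over 6 libraries was 0.27, 0.42 and -0.37 on the log2 scale in TIPE2 1, 2 and 3, against -0.23, 0.15 and -0.25 in Vector 1, 2 and 3. Over all genes tested it lay between -0.01 and 0.01. The fibroblast marker LUM, a small proteoglycan of collagen fibrils, had 1.11, 0.932 and 0.0598 FPKM in TIPE2 1, 2 and 3 and 0.631, 0.410 and 0.122 FPKM in Vector 1, 2 and 3, and the endothelial marker PECAM1 had 0.939, 0.759 and 0.232 FPKM in TIPE2 1, 2 and 3 and 0.204, 0.210 and 0.103 FPKM in Vector 1, 2 and 3. LUM was higher in TIPE2 1 and 2 than in the other libraries, and PECAM1 was too, with TIPE2 3 also above each Vector library. PDGFRB, of the fibroblast list, and LYZ, of the immune list, were also higher in each TIPE2 library than in each Vector library, at 0.148 FPKM or less. The part of these markers in the collagen values was not tested. The summed level of the fibroblast list, mostly TAGLN, was 10.1 to 20.3 FPKM in TIPE2 and 15.3 to 22.9 FPKM in Vector libraries, that of the endothelial list 0.813 to 1.15 and 0.560 to 0.819 FPKM, and that of the immune list 0.0658 to 0.418 and 0.0990 to 0.195 FPKM.

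**Figure D4:**
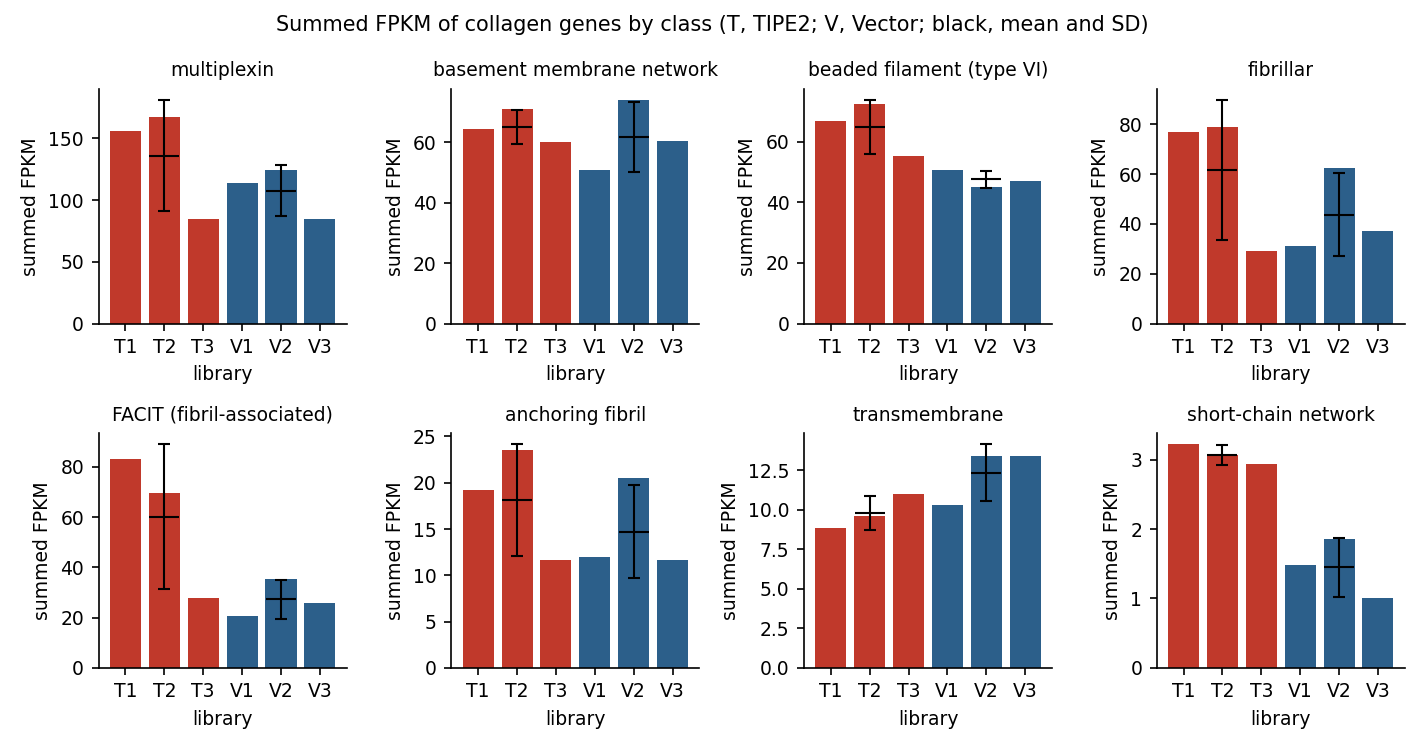
Summed FPKM of the collagen genes of 8 classes in each library, TIPE2 (T) in red and Vector (V) in blue, with the group mean and SD in black and each vertical axis on its own scale from 0. The fibrillar and fibril-associated classes are high in T1 and T2 only among the TIPE2 libraries, the basement membrane class is level, and the short-chain class is higher in all 3 TIPE2 libraries.

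The sums by class had different patterns over the libraries. Basement membrane chains summed to 64.3, 70.9 and 59.9 FPKM in TIPE2 1, 2 and 3 and 51.0, 73.9 and 60.3 FPKM in Vector 1, 2 and 3, so the groups overlapped. Fibrillar chains summed to 76.9, 78.7 and 29.3 FPKM in TIPE2 1, 2 and 3 and 31.3, 62.6 and 37.3 FPKM in Vector 1, 2 and 3, and TIPE2 3 had the lowest of these sums. Type VI chains summed to 66.8, 72.5 and 55.2 FPKM in TIPE2 1, 2 and 3 and 50.6, 44.9 and 47.2 FPKM in Vector 1, 2 and 3. The short-chain class summed to 3.22, 3.06 and 2.93 FPKM in TIPE2 1, 2 and 3 and 1.49, 1.86 and 1.00 FPKM in Vector 1, 2 and 3. For these last 2 classes each TIPE2 library lay above each Vector library, which rests on COL6A2 in type VI, where COL6A1 overlapped, and on COL8A1 in the short-chain class, where COL8A2 overlapped.

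None of the 34 tested enzymes, chaperones, proteases and receptors that serve collagens passed the test, which 0.0239% of all genes did. Of 58 genes in 6 lists, 34 were tested, 18 with a higher and 16 with a lower mean in TIPE2 cells, and their median log2 difference was 0.01. Limma and limma-voom called 0 of them, and 1, MIA3, had an unadjusted p under 0.05, beside 3.01% of all genes higher and 2.97% lower. The groups did not overlap for MIA3, which was higher, beside 6.18% of genes tested. Nor did they for COLGALT1, which adds galactose to collagen and was lower, beside 5.31%. COLGALT1 had 47.8, 54.2 and 52.8 FPKM in TIPE2 1, 2 and 3 and 57.4, 56.7 and 54.8 FPKM in Vector 1, 2 and 3. FKBP10, LOXL4 and PCOLCE, which were not tested, were also lower in each TIPE2 library, beside 4.21% of genes above 0 but not tested. In the list of prolyl and lysyl hydroxylation 13 of 15 were tested, 5 higher and 8 lower in mean, with a median of -0.04. P4HA1, a catalytic subunit of the main procollagen prolyl hydroxylase, had 40.8, 41.7 and 35.0 FPKM in TIPE2 1, 2 and 3 and 71.5, 51.8 and 37.2 FPKM in Vector 1, 2 and 3. Vector 1 and 2 were the highest libraries for it, and Vector 3 lay within the TIPE2 range. CRTAP, a subunit of the prolyl hydroxylation complex that also holds cyclophilin B, had 30.6 ± 1.88 FPKM with TIPE2 and 27.2 ± 2.01 FPKM with the empty vector, P3H3 had 9.84 ± 1.69 FPKM with TIPE2 and 11.7 ± 2.50 FPKM with the empty vector, and the lysyl hydroxylase PLOD3 had 5.17 ± 0.936 FPKM with TIPE2 and 4.37 ± 0.453 FPKM with the empty vector (SD, n = 3).

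In folding and secretion 9 of 10 were tested, 5 higher and 4 lower. MIA3, also called TANGO1, loads procollagen into carriers at the endoplasmic reticulum. It had 5.02, 4.34 and 4.38 FPKM in TIPE2 1, 2 and 3 and 2.71, 3.60 and 4.12 FPKM in Vector 1, 2 and 3. Each TIPE2 library lay above each Vector library, with a difference of 0.33 ± 0.14 (SE; limma, adjusted p = 0.827). Its relative MIA2 had 3.19 ± 0.701 FPKM with TIPE2 and 2.53 ± 0.133 FPKM with the empty vector, the coat protein SEC24D had 5.87 ± 0.309 FPKM with TIPE2 and 5.09 ± 0.692 FPKM with the empty vector and the ion channel TMEM38B 7.27 ± 0.922 FPKM with TIPE2 and 8.06 ± 1.08 FPKM with the empty vector (SD, n = 3). Of the proteases that trim procollagen and their enhancers, 3 of 8 were tested, 1 higher and 2 lower. BMP1, which removes the C-terminal propeptide, had 24.8, 28.1 and 19.5 FPKM in TIPE2 1, 2 and 3 and 16.0, 21.5 and 18.8 FPKM in Vector 1, 2 and 3, so the groups overlapped. ADAMTS2, which removes the N-terminal propeptide, had 2.02 ± 0.329 FPKM with TIPE2 and 2.15 ± 0.569 FPKM with the empty vector, and the enhancer PCOLCE2 had 4.35 ± 0.979 FPKM with TIPE2 and 5.36 ± 1.02 FPKM with the empty vector (SD, n = 3).

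Of the list of lysyl oxidases and peroxidasin, 4 of 6 were tested, with 2 higher and 2 lower means. LOX, which starts the cross-links of fibrillar collagen, had 16.9, 15.5 and 7.45 FPKM in TIPE2 1, 2 and 3 and 13.4, 11.0 and 7.70 FPKM in Vector 1, 2 and 3. As with the fibrillar chains, TIPE2 3 was low and TIPE2 1 and 2 were high, but Vector 1 was the highest Vector library. LOXL1 had 25.5 ± 4.01 FPKM with TIPE2 and 29.8 ± 3.76 FPKM with the empty vector, LOXL2 had 47.2 ± 6.92 FPKM with TIPE2 and 48.6 ± 4.94 FPKM with the empty vector, and PXDN, which cross-links type IV collagen, had 11.5 ± 2.11 FPKM with TIPE2 and 9.82 ± 2.10 FPKM with the empty vector (SD, n = 3). Of 11 collagen receptors 5 were tested, all 5 with a higher mean, beside 48.9% of all genes, 0 called, beside 0.0239%, and the median was 0.27. The receptor kinase DDR1 had 13.9, 13.7 and 7.44 FPKM in TIPE2 1, 2 and 3 and 8.81, 9.07 and 7.45 FPKM in Vector 1, 2 and 3. TIPE2 1 and 2 were high and TIPE2 3 was level with Vector 3. MRC2, a receptor that takes up collagen, had 56.3, 59.5 and 32.1 FPKM in TIPE2 1, 2 and 3 and 40.7, 45.5 and 32.9 FPKM in Vector 1, 2 and 3, so TIPE2 1 and 2 were high and TIPE2 3 was below the Vector libraries. The integrin chains ITGA1 and ITGA2 had 1.55 ± 0.405 FPKM with TIPE2 and 1.02 ± 0.364 FPKM with the empty vector and 2.19 ± 0.450 FPKM with TIPE2 and 2.09 ± 0.817 FPKM with the empty vector (SD, n = 3). None of the 8 proteoglycans and fibril regulators, DCN and LUM among them, reached a mean of 1 FPKM.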

How the data were processed

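RNA sequencing of 6 SKOV3 libraries was analysed. Per the labels' protocols, TRIzol was used for extraction and Illumina protocols for the libraries. The authors deposited FPKM per gene, 1 table per library, per the file headers. CASAVA 1.7, Bowtie and the mouse build mm8 are named in the submitters' processing notes. All 58735 identifiers matched human GENCODE 29, and its exon lengths gave whole fragments, so the values were counted on a human annotation and not on mm8. The sources used here do not give the human build of the alignment, the counter or its strand setting. Multiplying FPKM by merged exon length came out whole, within 0.01 fragments, for 100% of values above 0, with denominators of 96.3% to 103% of the assigned fragments; fragments are not independent molecules, so limits cover counting error only.

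The test was limma 3.58.1 (R 4.3.3) on log2(FPKM + 1), trend and robust options on, no covariate, over 12538 genes averaging 1 FPKM or more; p-values were Benjamini-Hochberg adjusted over all of them. Differences on this scale understate changes of low genes. Python 3.11.15 with scipy 1.17.1 was used otherwise. The steps were tested on simulated data. Members and lists were chosen with earlier results of these data known. Every member averaging 1 FPKM or more in either group was named, with up to 4 genes of smallest p per list. Given outside this rule were the cell type markers, LUM, DCN, COLGALT1, FKBP10, LOXL4, PCOLCE and ITGB1. So were the genes below 1 FPKM that are named and the ratio of COL5A1 to COL5A2. Planned protein features were not computed, as no protein table was used here. Alternatives were the replicate block, each library left out, other filters, pseudocount and scaling, plain limma and limma-voom.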

Additional observations from a re-analysis of the deposited data

How the results depend on the processing

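Of the 17 collagen genes tested, 12 kept the sign of their difference in every one of the 13 fits other than the one reported, as far as they passed the filter there, and COL8A1 was the 1 gene that any of them called (limma-voom, log2 difference 1.51, adjusted p = 0.0366). COL8A1 passed the filter of the limma-voom fit through its TIPE2 level. The other 5 of the 17, with reported differences between 0.02 and 0.17, changed sign. Leaving out 1 library at a time gave -0.0234 to 0.17 for COL4A2, -0.0624 to 0.29 for COL4A1, -0.1279 to 0.12 for COL4A3, -0.053 to 0.58 for COL1A2 and -0.0168 to 0.30 for COL4A4, and quantile normalization gave -0.0054 for COL4A3. Over all genes 3 were called, and 1 with the replicate block, with no filter or with a mean of at least 5 FPKM, and 11 without TIPE2 3, 4 without Vector 1 and 1 without any other single library; no collagen gene was called under the block. Same-numbered libraries had deviations correlated by -0.23, 0.15 and 0.19, so the numbers were not read as pairs. Collagen genes at an unadjusted p under 0.05 numbered 4, and 1 to 10 without 1 library, where no share of all genes is given. Those with a higher mean numbered 15 of 17, 31 of the 42 that have any fragment with no filter, 9 of 11 at a mean of at least 5 FPKM, and 12 to 16 without 1 library. The median difference lay between 0.08 and 0.52 without 1 library and between 0.04 (no filter) and 0.29 otherwise. No gene of the collagen pathway lists was called in any fit. The count of genes at 1 FPKM or more was 17 to 18 in TIPE2 and 15 to 16 in Vector cells without 1 library, 21 and 19 at 0.5 FPKM, 16 and 12 at 2 FPKM, 15 and 14 when every library of the group had to reach 1 FPKM, and 18 and 18 when any had to. The summed level without COL18A1 was 282.7 FPKM with TIPE2 and 208.8 FPKM with the empty vector, because the sum then lacks its highest gene, and 380.3 to 486.9 and 285.8 to 334.0 FPKM without 1 library. Where the cause of a change is not given by the setting, the cause was not tested. Of the 26 genes below 1 FPKM, 14 rest on 20 or fewer fragments over all libraries.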
